A study of Mus musculus with 15 samples.

Results

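Cytosolic ribosomal protein genes were followed across 5 motor pools of the neonatal mouse spinal cord. Rows of the deposited gene table were taken as members when their symbol was that of a large-subunit (Rpl), small-subunit (Rps) or acidic stalk (Rplp0, Rplp1, Rplp2) protein and at least 3 of the 15 libraries held 10 or more reads. Of 36814 gene rows, 79 carried such a symbol and 67 met the read minimum, 41 of the large and 26 of the small subunit. The last members inside the minimum were Rps27a, Rps16 and Rpl34, with 3 qualifying libraries each, and the first outside were Rpl3l and Rpl23a, with 2 each. Of the 12 rows left out, Rps18, Rps12, Rpl10l and Rpl39l had no read in any library.

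Each pool is the set of motor neurons of 1 hindlimb muscle or muscle group of wild-type mice: 2 in front of the shin, tibialis anterior (TA) and extensor digitorum longus (EDL), 1 at its side, peroneus longus (PL), 1 in the calf, gastrocnemius (GS), and the small muscles within the foot (IF, intrinsic foot). The cells were marked by injecting the retrograde tracer cholera toxin B, coupled to Alexa 555, into one muscle on postnatal day 4. On day 6 the marked cells were cut out of 12 µm frozen sections by laser, 30 to 40 cells from 2 to 5 animals per library, with 3 libraries per pool and no untreated or other control group. Nothing in the labels ties a library to particular animals, so p-values measure the spread between pooled libraries. RNA of other cells within the cut area is counted too, and a difference in how much RNA a cell holds cannot be told apart from a difference in which cells were captured.

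Each cytosolic ribosome joins a small subunit, which reads the messenger RNA, to a large subunit, which forms the peptide bond. The proteins of both subunits are needed in matched amounts, and most of their messenger RNAs begin with a run of pyrimidines, the 5′-terminal oligopyrimidine tract, through which the mTOR pathway controls their translation. In motor neurons, which maintain long axons and large cell bodies, ribosomes fill the Nissl substance. Mammalian genomes also hold many processed pseudogenes of these genes, near-identical copies without introns, so a short read from one member can often be placed at several sites.

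The start regions of 5 members on which the results below turn differ in their pyrimidine runs near the annotated start. The stretches run from 40 bases before to 20 bases after the start annotated by RefSeq on GRCm38.p6, on the strand of the gene, and the capitals mark the longest unbroken run of C or T that touches the 10 bases around that start. They lie at chr9:64173347-64173406 (plus strand) for Rpl4, chr14:18270967-18271026 (minus) for Rpl15, chr11:101442205-101442264 (plus) for Rpl27, chrX:102189372-102189431 (minus) for Rps4x and chr5:115559427-115559486 (plus) for Rplp0.
Rpl4: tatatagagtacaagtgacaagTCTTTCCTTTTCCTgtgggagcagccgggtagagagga
Rpl15: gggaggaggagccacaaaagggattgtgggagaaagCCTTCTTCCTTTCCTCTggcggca
Rpl27: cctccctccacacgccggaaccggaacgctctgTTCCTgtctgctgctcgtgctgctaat
Rps4x: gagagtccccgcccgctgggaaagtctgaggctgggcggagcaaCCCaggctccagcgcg
Rplp0: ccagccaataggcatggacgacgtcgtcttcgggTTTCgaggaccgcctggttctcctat
The run was 14 bases long in Rpl4 and 17 in Rpl15, but 5 in Rpl27, 4 in Rplp0 and 3 in Rps4x. Only the Rpl15 run covers the annotated start. The runs of Rpl4, Rpl27 and Rplp0 end before it, and that of Rps4x begins after it. RefSeq windows were found for 61 of the 67 members. A run of at least 8 pyrimidines lay there in 20 of these 61, or 32.8%, against 9.38% of the 32851 promoter windows in the table. In the same 300-base windows, on either strand, CCGGAAG, the core bound by ETS factors, was present in 34.4% of members and 8.86% of all windows, AAGATGGC, the core bound by YY1, in 9.84% and 2.75%, and the TATA box TATAAA in 9.84% and 13.6%. These letter matches describe the windows only. The annotated start can differ from the one used in these neurons: the bases after it were found near the start of a GENCODE transcript of the same gene for 47 of the 61.

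The total of counted reads ranged from 4417114 in PL 2 to 8488368 in PL 1. Libraries PL 2 and PL 3 stood apart, with reads in 11019 and 10548 genes, against 13092 to 17321 in the other 13. Motor neuron markers were present in every library, their summed level ranging from 31382 CPM (counts scaled to a common library size) in a GS library to 119643 in a TA library. Isl1, a LIM homeodomain factor of motor neuron subsets, was at 0 in 8 libraries, all of them TA, EDL or PL. In edgeR's quasi-likelihood test, 14340 genes passed the filter on low counts, 65 of the members among them. Rps16 and Rps2 were not tested.

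The ribosomal protein genes were highest, as a group, in the intrinsic foot pool and low in the peroneus longus pool. For each library, every member's log2 CPM was set against that member's mean over the 15 libraries, and the median over the 67 members is called the member shift. It was 0.50, 0.89 and 0.62 in the 3 IF libraries and -0.36, -0.62 and -0.66 in the 3 PL libraries. Every IF library was above each of the 12 others here, of which the highest was EDL 1 at 0.47. That order depended on the setting for IF 1: with a prior count of 0.5 it was level with EDL 1, both at 0.56, and over the 22 members with at least 100 reads per library on average it was at 0.25, below EDL 1 at 0.52. EDL 2 and EDL 3 had shifts of 0.15 and 0.18, so the EDL pool was positive throughout, with a mean of 0.27 ± 0.18 (SD, n = 3) against 0.67 ± 0.20 for IF and -0.55 ± 0.16 for PL. TA and GS had libraries on both sides of 0. The TA libraries had shifts of -0.19, 0.14 and -0.99, and the GS libraries 0.22, -0.30 and -0.23. All 3 PL libraries lay below all 3 GS libraries here, but this order also depended on the setting. Over the 22 members with at least 100 reads per library on average, PL 2 and PL 3 were at -0.08 and -0.14, above GS 2 at -0.16. With total-count scaling PL 1 was at -0.25, above GS 2 at -0.44. TA 3 was the lowest of all 15 and TA 2 lay above every PL library, so the order of TA and PL is within the spread of their replicates.

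**Figure D1:**
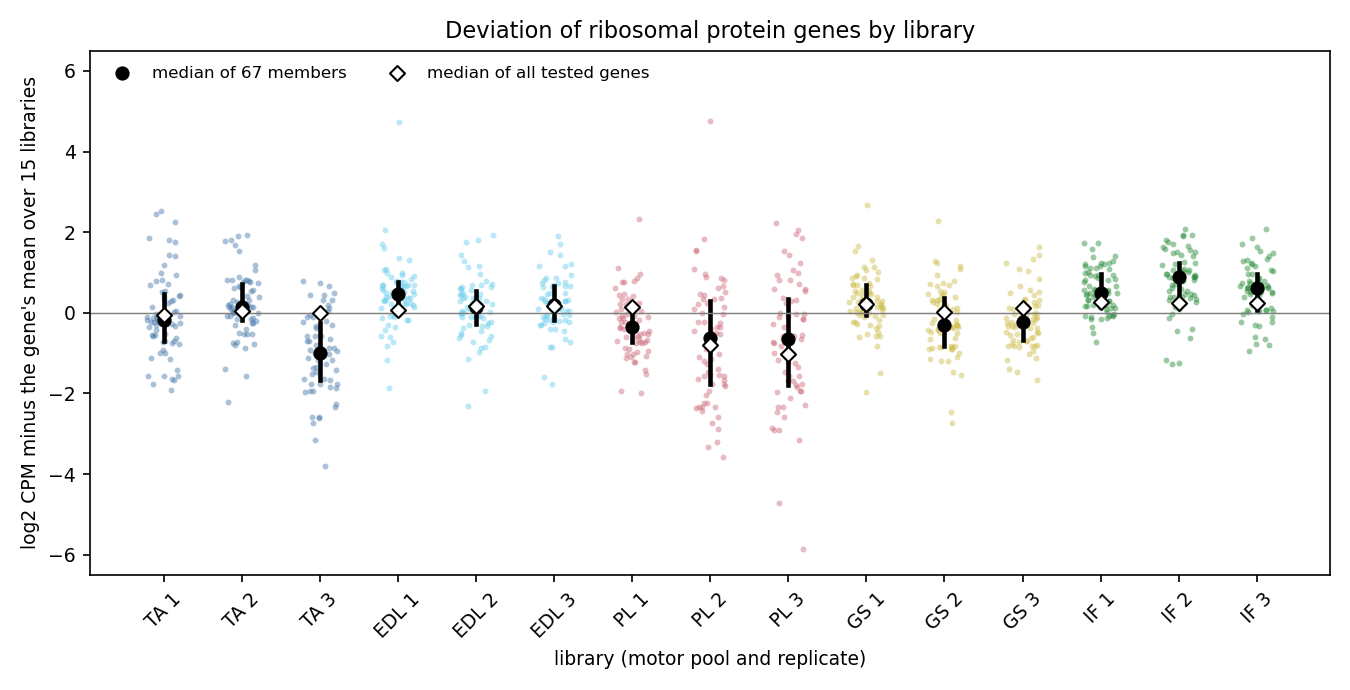
Deviation of each of the 67 ribosomal protein genes from its own mean over the 15 libraries, in log2 CPM (vertical axis), by library (horizontal axis). Black points and bars give the median and interquartile range of the members, and open diamonds the median of all tested genes; the member medians of IF 1, IF 2 and IF 3 lie at 0.50, 0.89 and 0.62 and those of PL 2 and PL 3 at -0.62 and -0.66.

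The median of all tested genes moved as well in some libraries. It was 0.26, 0.25 and 0.24 in IF 1, IF 2 and IF 3, below the members in each. In PL 2 and PL 3 it was -0.79 and -1.01, lower than the member shift there, whereas in PL 1 it was 0.15 and the members were at -0.36. In TA 3 the median gene was at -0.0041 and the members at -0.99. The members lay above the median gene by 0.24, 0.64 and 0.38 in IF 1, IF 2 and IF 3 and by 0.41 in EDL 1. The difference was -0.98 in TA 3, -0.51 in PL 1, -0.31 in GS 2 and -0.34 in GS 3, and between -0.14 and 0.36 in the other 7 libraries, of which PL 3 was the highest.

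Ribosomal protein reads were a small part of these libraries. They made up 0.246%, 0.299% and 0.258% of all gene counts in IF 1 to IF 3, and 0.225%, 0.219% and 0.216% in EDL 1 to EDL 3. In GS the share was 0.212%, 0.157% and 0.163%, in TA 0.170%, 0.178% and 0.118%, and in PL 0.172%, 0.127% and 0.128%. This share uses no scaling between libraries, and the IF libraries again lay above all others and the EDL libraries above all of TA, PL and GS. The number of genes with a read was also highest in IF, at 17321, 16728 and 16637, and lowest in PL 3 and PL 2. It was 14179 to 15320 in EDL, 13610 to 16429 in GS, 13092 to 13835 in TA and 10548 to 15188 in PL. GS 1 departed from this order, with 16429 genes, more than any EDL library, and a lower share than each of them. So did PL 1, with 15188 genes, and GS 3, with 14798: both had more genes than EDL 1, with 14179, and lower shares. GS 3 also had a lower share than TA 1 and TA 2, which had 13092 and 13835 genes. The part of the number of genes detected in the member shift was not tested.

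**Figure D2:**
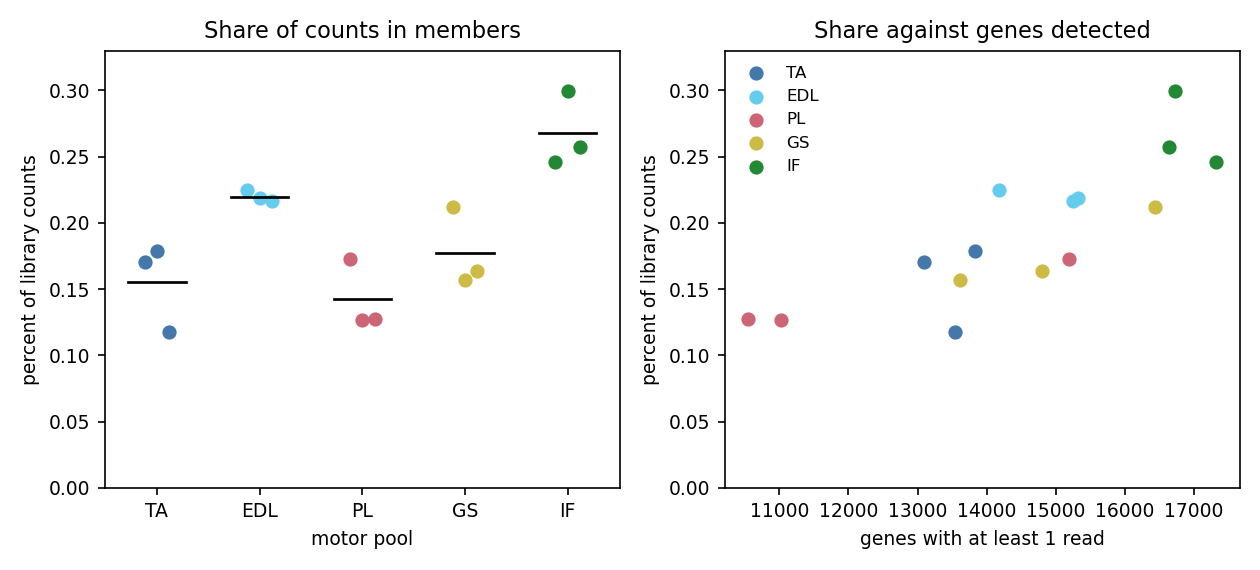
Percent of each library's gene counts that fell in the 67 members, by motor pool (left; bars are means of 3 libraries) and against the number of genes with at least 1 read (right). The IF libraries lie at 0.246% to 0.299% with 16637 to 17321 genes detected, and PL 2 and PL 3 at 0.127% and 0.128% with 11019 and 10548 genes.

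When each pool was set against the other 4, the median fitted log2 difference of the 65 tested members was 0.62 in IF, 0.18 in EDL, -0.01 in GS, -0.31 in TA and -0.62 in PL. The corresponding medians of all 14340 genes lay between -0.06 and 0.06. In IF, 54 of the 65 members (83.1%) had a positive difference, against 51.2% of all genes, and in PL 14 of 65 (21.5%) did, against 48.0%. These 5 comparisons share libraries, since each pool is also part of the reference of the others. Judged by the mean over a pool's libraries, 44 of the 67 members were highest in IF (65.7%, against 26.1% of tested genes) and 36 were lowest in PL (53.7%, against 43.3%). Without PL 2 and PL 3 the IF median was 0.76 and the PL median -0.73. Without TA 2 the TA median was -0.62, below the PL median of -0.53, and without TA 1 the values were -0.51 and -0.50.

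Between pairs of pools the median member difference was largest for PL against IF, at -0.98, followed by TA against IF at -0.69, EDL against PL at 0.61 and GS against IF at -0.55. It was -0.31 for EDL against IF and 0.24 for EDL against GS. For TA against EDL, pools whose muscles both lift the foot, it was -0.44. These pair values are of the members alone and are not set against the median gene, which also moved between libraries.

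Members of both subunits followed this order. In IF the median was 0.68 for the 24 tested small-subunit members, 23 of them positive, and 0.60 for the 41 large-subunit members, 31 of them positive. In PL the corresponding medians were -0.43 and -0.64. Gene length also moved with the difference between pools. The 1035 other tested genes shorter than 1000 bases had a median of 0.26 in IF and -0.23 in PL, against -0.06 and 0.04 for the 8649 over 3000 bases. The 20 members shorter than 1000 bases had medians of 0.52 in IF and -0.43 in PL, and the 45 longer ones 0.69 and -0.64. Members with at least 100 reads per library on average, 22 genes, had a median of 0.39 in IF and -0.33 in PL, whereas the 43 with fewer reads had 0.88 and -0.83.

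**Figure D3:**
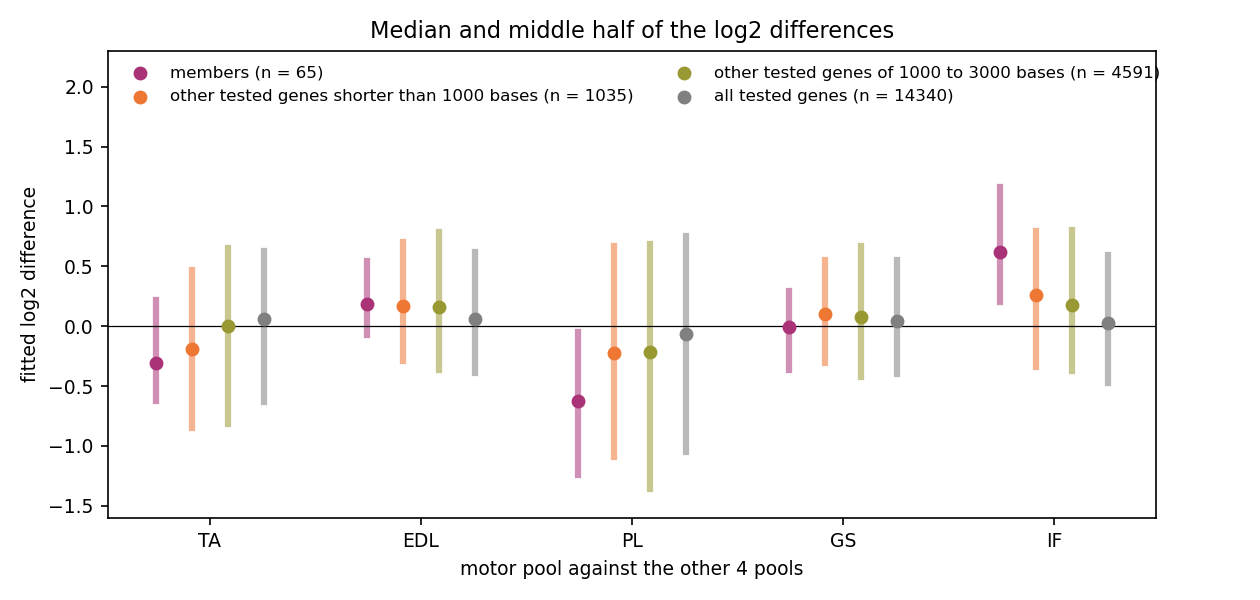
Fitted log2 difference of each pool against the other 4 pools (vertical axis) for 4 classes of genes. Points are medians and bars interquartile ranges over genes; the members lie at 0.62 in IF and -0.62 in PL, and the other tested genes shorter than 1000 bases at 0.26 and -0.23.

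No member passed the test across the 5 pools at once (edgeR's quasi-likelihood test with Benjamini-Hochberg adjustment, threshold 0.05), where 1.31% of all tested genes did. An unadjusted p under 0.05 was reached by 4 members and 15.5% of all genes. None was called in TA, EDL or GS against the other 4 pools, where 0.418%, 0.0976% and 0.126% of genes were called. There 2, 2 and 1 members had an unadjusted p under 0.05, as had 12.3%, 6.42% and 5.82% of all genes. In PL, 3 of the 65 members (4.62%) had such a p, against 22.4% of all genes. None was called in IF, where 1.1% of genes were, and none in the 10 pairs of pools, where 0.248% of the tests over all genes passed. DESeq2 called 3 members across the 5 pools, where it called 8.11% of all genes, 3 in PL (12.0%) and 1 in IF (1.74%). In TA, EDL and GS it called 0 members and 2.93%, 0.481% and 0.397% of all genes, and over the 10 pairs it made 9 member calls, where 2.91% of the tests over all genes passed. In IF, 7 of 65 members (10.8%) had an unadjusted p under 0.05, all with higher levels in IF, and 9.38% of all genes reached that p in either direction. The member medians differed between pools. With all libraries and the main scaling (TMM), however, edgeR's test called no member in the direction of its pool's median. The only calls in that setting, Rpl15 and Rpl27 in PL, were higher, whereas the PL median was negative. With total-count scaling the test called Rps4x higher in IF, where 1.23% of all genes were called. The authors' deposited tables of pairwise comparisons, 16 lists with 541 entries in all, hold none of the 79 rows.

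Rps4x, the X-linked gene of the small-subunit protein S4, came closest in IF. Its level was 24.5, 31.2 and 31.5 CPM in the IF libraries. In the 12 others it ran from 1.92 CPM in PL 2 to 8.57 in EDL 1, with a mean of 7.86 ± 0.67 in EDL, 5.49 ± 3.12 in TA, 4.96 ± 0.89 in GS and 3.84 ± 1.78 in PL (SD, n = 3). The IF libraries did not overlap with any other. The fitted log2 difference was 2.44 ± 0.64 (SE), with an adjusted p of 0.0872 (edgeR's quasi-likelihood test with Benjamini-Hochberg adjustment), just outside the threshold. It passed with limma voom (adjusted p = 0.0136, log2 difference 2.47) and with DESeq2 (adjusted p = 0.000296, log2 difference 2.46). Without PL 1 it also passed edgeR's test, at 2.55 with an adjusted p of 0.033, and with total-count scaling, at 0.0482. It did not pass that test when any other single library was left out. Without IF 1, IF 2 or IF 3 the adjusted p was 0.306, 0.447 and 0.460, with differences of 2.58, 2.41 and 2.41. With a block for replicate number it was 0.151. The gene lies at chrX:99380280-99384734 on the minus strand in the table's mm9 coordinates.

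In 8 members, or 12.3% of the 65 tested, all 3 IF libraries lay above the 12 others, a pattern that 1.88% of all tested genes shared. They were Rps4x, Rpl7, Rpl37a, Rps10, Rpl36, Rpl7a, Rplp0 and Rpl39. No member had all libraries of TA, EDL, PL or GS above the rest, as 0.635%, 0.418%, 0.621% and 0.251% of all genes had, and none had all PL libraries below the rest, as 1.21% had. The count under other scalings was 8 to 13, the highest with total-count scaling, where 3.63% of all genes had the pattern. With that scaling 2 members, Rpl36 among them, had all PL libraries below the rest, as 1.46% of all genes had. Rpl7, a large-subunit protein, was at 16.3, 17.9 and 20.5 CPM in IF and between 0.958 and 9.94 CPM elsewhere, with a log2 difference of 1.86 ± 0.72 and an adjusted p of 0.337 in edgeR's test. Rpl39, the X-linked gene of one of the smallest ribosomal proteins, was at 21.5, 30.2 and 23.9 CPM in IF and reached at most 17.9 CPM in GS 2. Rps10 was at 6.82, 5.75 and 5.35 CPM in IF and at most 4.15 CPM in PL 2. Rpl37a, Rpl36 and Rpl7a had IF means of 16.9 ± 2.74, 4.64 ± 1.36 and 7.29 ± 1.01 CPM, and none was called.

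The stalk of the large subunit, which recruits and activates the elongation factors, is built from Rplp0 and the acidic proteins Rplp1 and Rplp2. Rplp0 was at 18.6, 32.4 and 22.3 CPM in IF, and its highest value elsewhere was 14.8 CPM in EDL 1. Its log2 difference in IF was 1.74 ± 0.71, with an adjusted p of 0.398 in edgeR's test. Rplp2 was at 12.0 to 23.4 CPM in IF, overlapping with GS 3 at 16.3 and EDL 1 at 15.8. Rplp1, the most abundant of the 3, showed no such order: its IF libraries were at 78.7, 85.2 and 58.0 CPM, within the range of 29.5 to 131 CPM of the rest, and its log2 difference in IF was -0.06 ± 0.45. Rpl4 likewise held 357, 388 and 336 CPM in IF against 318 to 503 CPM elsewhere, a log2 difference of -0.18 ± 0.22. The most abundant member thus did not follow the group shift, and neither did Rpl27a (-1.35 ± 0.97) or Rpl26 (-1.89 ± 1.40), the lowest in IF, although their errors are wide.

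**Figure D4:**
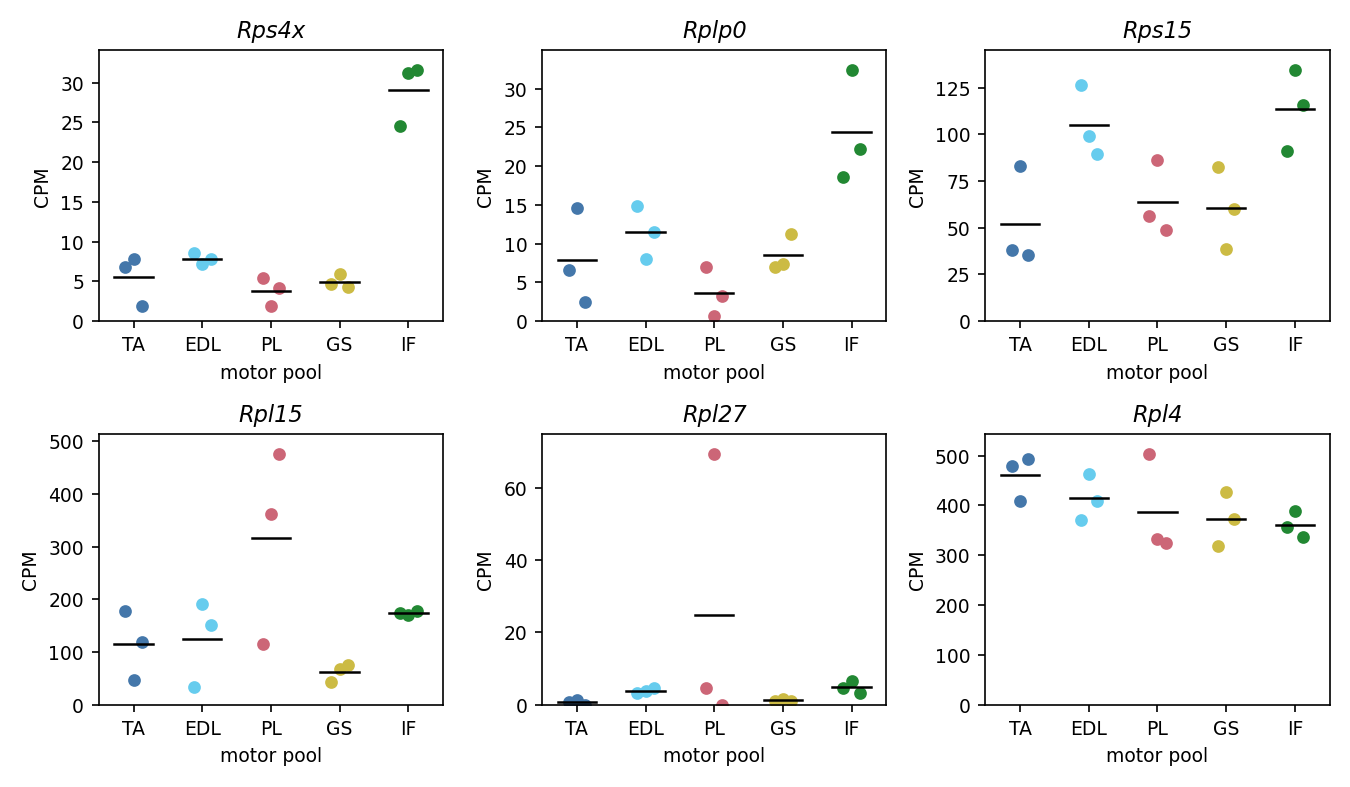
Level in CPM (vertical axes, each from 0) of 6 members in the 15 libraries, grouped by motor pool; points are libraries and bars means of 3. Rps4x and Rplp0 have all IF libraries above the others, and Rpl4 stays between 318 and 503 CPM. Rpl15 is highest in PL 2 and PL 3, and Rpl27 in PL 2 alone.

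In the peroneus longus pool, 2 members were called, both higher, or 3.08% of the 65, while 4.87% of all genes were called there and 4.5% called higher. Rpl15, a large-subunit protein whose long pyrimidine run is printed above, was at 115, 362 and 476 CPM in PL 1, PL 2 and PL 3, and between 33.9 and 192 CPM elsewhere. Its log2 difference was 1.50 ± 0.43, with an adjusted p of 0.0494 in edgeR's quasi-likelihood test. PL 1 lay inside the range of the other pools, and without PL 2 and PL 3 the difference was 0.03. Rpl27 was at 69.3 CPM in PL 2, at 4.77 in PL 1 and at 0 in PL 3, and at most 6.62 CPM elsewhere. Its fitted difference of 3.61 ± 1.03, with an adjusted p of 0.0496 in the same test, rested on PL 2, since it was 0.27 without that library. Neither call remained with total-count scaling, where the differences were 0.99 for Rpl15 and 3.09 for Rpl27, with limma voom, where they were 1.17 and 0.84, or after leaving out PL 2 and PL 3 together. Both adjusted p-values were close to the threshold. When single libraries of the other pools were left out, the Rpl15 difference stayed at 1.35 to 1.61 and that of Rpl27 at 3.47 or more, but only the Rpl15 call without TA 1 remained. Without PL 1, the PL contrast called 6 of 67 members, and 21.4% of all genes: Rpl15 and Rpl27 higher, and Rpl8, Rps9, Rpl24 and Rps14 lower, with log2 differences from -1.64 to -3.52. Those 4 names were chosen after their values were seen. Rps9 was also called lower in PL by DESeq2 with all 15 libraries, at -1.37 with an adjusted p of 0.0275, whereas edgeR's test with all libraries called none of the 4.

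At the other end, members with low PL differences included Rpl36 (-2.29 ± 1.24), Rpl10 (-2.29 ± 1.61), Rpl36a (-2.21 ± 1.21) and Rpl12 (-2.19 ± 1.53), none of them called. These 4 had low levels, with 102 to 531 reads in all over the 15 libraries. Besides Rpl15 and Rpl27, the highest PL differences were those of Rpl26 (1.64 ± 1.10), Rpl19 (0.91 ± 0.92) and Rpl10a (0.84 ± 1.21). Rpl19 and Rpl10a were high in PL 3 alone among the PL libraries, at 12.1 and 5.96 CPM.

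Members differed widely in how closely they followed the library shift. The interquartile range of their deviations within a library was 0.60 in EDL 1 and 0.74 in GS 1, 0.81 to 0.89 in IF, and 2.07 and 2.13 in PL 2 and PL 3. Between genes, the SD of the fitted difference was 0.79 in IF and 1.07 in PL for the members, below the 1.19 and 1.87 of all tested genes. Around the shift of each library, the SD over the 15 libraries was smallest for Rps15 (0.37), Rpl13a (0.42), Rps24 (0.42) and Rps3a (0.48), and largest for Rpl27 (1.83), Rpl27a (1.80), Rpl5 (1.59) and Rpl31 (1.40). Rps15, which helps export the small subunit from the nucleus, shows the pattern of a member that follows the group, with 91.1, 134 and 116 CPM in IF, 126, 99.2 and 89.2 in EDL, 82.7, 38.5 and 60.2 in GS, 38.0, 83.1 and 35.3 in TA, and 56.1, 86.2 and 48.5 in PL. Over the 67 members the SD fell with the total reads (Spearman's rho -0.39), a relation across genes that share the same libraries.

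Single libraries set the values of several members. Rps27a, which encodes ubiquitin fused to the small-subunit protein S27a, was at 24.4 CPM in EDL 1, from 211 reads, and at most 2.60 CPM in any other library, so that EDL 1 held 72.3% of its summed level. Rpl27 had 65.3% of its level in PL 2. In 12 further members 1 library held between 20% and 50%, where an even spread would give 6.67%. Rpl10a was at 8.33 CPM in GS 1, Rpl10 at 5.43 and Rpl18 at 36.3 CPM in TA 1. The opposite also occurred: Rpl5, which with Rpl11 binds the 5S ribosomal RNA, was at 0.441 CPM in PL 3 and at 28.6 to 108 CPM in the 14 others. Rpl27a was at 0.662 CPM in PL 3 and ranged up to 120 CPM in GS 2.

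Levels per length differed widely between members. In RPKM, which divides reads by gene length and library size, averaged over the 15 libraries, the highest were Rpl4 (143 ± 33.9), Rpl32 (86.6 ± 45.7), Rplp1 (81.9 ± 42.2), Rps15 (65.0 ± 34.9) and Rpl8 (60.2 ± 35.0). The lowest were Rpl12 (0.199 ± 0.224), Rpl35a (0.219 ± 0.227), Rpl9 (0.230 ± 0.184), Rps2 (0.235 ± 0.236), Rpl10 (0.293 ± 0.307) and Rpl21 (0.299 ± 0.278). The errors are SD over all 15 libraries. The median member, at 2.59 RPKM, was no higher than the median tested gene, at 2.83. Rpl4 alone held 21.1% of all member reads and the 10 members with the most reads 66.8%. Only 24 members had 10 or more reads in every library.

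The measured level went down as the number of copies went up. Windows of 50 bases from each coding sequence were searched in the GENCODE transcripts with up to 2 mismatches, and the annotated pseudogenes hit were counted. In 46 of the 67 members every window also matched another gene, whereas 68.4% of other tested genes had no shared window. Rpl24 matched no pseudogene, Rpl4 and Rpl8 matched 1 each, and the median member matched 13. Among the 79 rows, the 15 with 0 to 5 pseudogenes had a median of 10.7 RPKM, the 41 with 6 to 20 had 2.18, and the 23 with more had 0.403. Spearman's rho between pseudogenes matched and mean RPKM was -0.50 over the 67 members and -0.42 over all 79 rows. How reads with several matches were counted is not given in the sources used here, so the levels of members with many copies are uncertain.

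**Figure D5:**
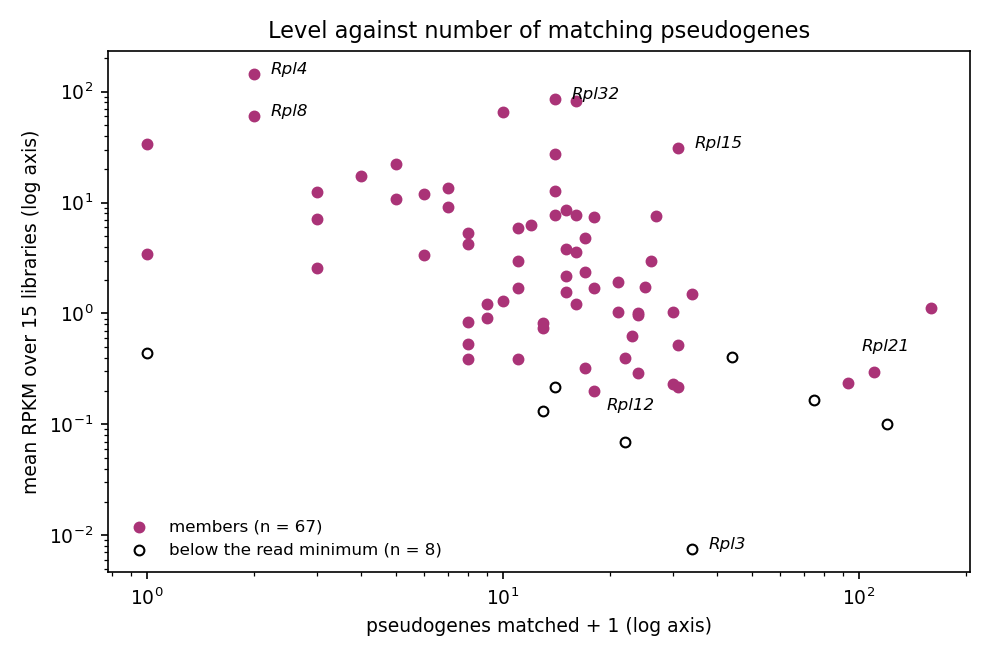
Mean RPKM over 15 libraries (log axis) against the number of annotated pseudogenes matched by windows of the coding sequence, plus 1 (log axis). Filled points are the 67 members and open points rows below the read minimum; 4 rows with no read are not drawn. Rpl4 and Rpl8, with 1 match each, lie at 143 and 60.2 RPKM, and Rpl21, with 109 matches, at 0.299 RPKM.

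Some reads of these families sit in rows named as pseudogenes. The table has 142 such rows with the suffix ps, 86 of them with a read, holding 60200 reads in all against 196791 in the members. Rpl10a had 171 reads and its 2 pseudogene rows 19388. Rps16 had 86 against 5645 and Rpl3, the large-subunit protein nearest to the catalytic center, which did not meet the read minimum, had 2 against 3304. Rps24 with 2291 against 6262 and Rpl14 with 4066 against 6293 had both. When these rows were added to the genes whose names they carry, an alternative chosen after seeing the data, the median member difference was 0.61 in IF and -0.52 in PL, and the same 2 members, Rpl15 and Rpl27, were called in PL. Members with their pseudogene rows then made up 0.304% to 0.381% of counts in IF and 0.158% to 0.293% in the other libraries, so the IF libraries again lay above all others.

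The 4 rows whose names end in l are paralogues of genes of this family. Rps27l, a paralogue of Rps27 regulated by p53, was at 12.1 ± 6.27 RPKM and ranged from 0.958 CPM in PL 2 to 34.9 CPM in PL 3 and GS 2, with an IF difference of 0.25 ± 0.81. Rpl3l, best known from striated muscle, was at 19.3 CPM in TA 2, at most 2.60 CPM elsewhere and at 0 in 9 libraries. Rpl10l and Rpl39l, known from testis, had no read.

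The other genes of the translation machinery were read from lists. The 75 tested mitochondrial ribosomal protein genes, whose products build the separate ribosome of the mitochondrion, had medians of 0.06 in IF and -0.19 in PL, and only Mrpl49 was called, higher in PL (1.67 ± 0.46, adjusted p = 0.0439 in edgeR's test). Among 20 elongation factors and other genes with a 5′-terminal oligopyrimidine tract, the IF median was 0.30, with 14 positive, and only Eef1a1 passed. Their medians in PL and EDL were not like those of the members: 0.05 in PL, with 10 positive, and -0.32 in EDL, with 3 positive. Eef1a1, which delivers aminoacyl-tRNA to the ribosome, was at 394 ± 47.9 CPM in IF, 175 ± 11.4 in EDL, 167 ± 16.1 in GS, 163 ± 77.1 in TA and 118 ± 46.2 in PL (SD, n = 3). It rose by 1.35 ± 0.27 on the log2 scale in IF (adjusted p = 0.0173 in edgeR's quasi-likelihood test with Benjamini-Hochberg adjustment), and the call was lost when any of the 3 IF libraries was left out. Of 41 ribosome biogenesis factors none was called in any pool, with medians of 0.17 in IF and -0.37 in PL. Of 18 genes that signal growth to the ribosome, Tsc2 and Eif4ebp2, which restrain mTOR signalling and cap-dependent translation, and Max, the partner of Myc, were called higher in PL. Their PL means of 276 ± 334, 223 ± 330 and 577 ± 526 CPM had SDs close to or above the means. Ribosomal proteins whose symbols fall outside the naming pattern, among them Gnb2l1, Rpsa and Fau, were not called. Gnb2l1, the scaffold also known as Rack1, had an IF difference of 0.80 ± 0.39 (adjusted p = 0.544 in edgeR's test). The 4 tested had medians of 0.27 in IF, with 3 positive, 0.64 in PL, with 2 positive, and -0.45 in GS, with 0 positive. The PL median was thus of the opposite sign to that of the members.

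Markers of other cells moved with the pools too. The summed level of 16 oligodendrocyte genes was 377 to 394 CPM in IF, 395 to 803 in GS, 621 to 945 in EDL, 599 to 2760.3 in PL and 854 to 1838 in TA. In IF the 15 tested had a median of -1.57; Mbp, which encodes myelin basic protein, was called lower and none was called higher. Opalin was at 0 in 14 libraries and Mog in 7. Astrocyte genes summed to 2050.2 to 2344 CPM in IF and 2297 to 4191 CPM elsewhere, and 1 of 10 was called, Slc1a2, lower in IF. Endothelial and mural genes summed to 616 to 1734 CPM in PL and 66.7 to 533 CPM elsewhere, with Rgs5 and Cdh5 called higher in PL. The list did not move as a whole: the median of the 10 genes in PL was -0.26, with 5 positive. Of these 10 genes, 6 were at 0 in PL 2 and 4 in PL 3. Microglial genes stayed at 1.74 to 85.2 CPM, with Aif1 at 0 in 14 libraries. The 7 tested had a median of 0.93 in IF, 6 of them positive, and none was called. Interneuron genes, of which 9 were found, summed to 34.8 to 71.5 CPM in IF and 120 to 374 CPM in the 12 other libraries; none of the 5 tested was called in any pool, and Pax2 was at 0 in 11 libraries. The 11 motor neuron markers had a median of -0.69 in IF, with 2 positive, 1 called higher and 1 called lower. The IF libraries thus had the largest share of ribosomal protein reads and the lowest summed levels of oligodendrocyte and interneuron genes. The part of other cells in the member shift was not tested.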

How the data were processed

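The deposited table gives, per gene, read counts and RPKM for 15 libraries, made by the authors from single-end reads of amplified cDNA. Bowtie 0.12.9, DESeq and the mm9 build are named per the submitters' processing notes; no source used here states the counting rule. The authors' deposited lists give adjusted p-values. In the counts, 16 cells in 4 genes held values below 0, none of them in a member, and those genes were dropped; coordinates are the table's. The members and lists were chosen with earlier results of these data known.

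Counts were tested with edgeR 4.0.16 (quasi-likelihood, TMM scaling, filterByExpr, R 4.3.3) in 1 fit with a coefficient per pool, with Benjamini-Hochberg adjustment over 14340 genes and a threshold of 0.05. Member shifts used log2 CPM with a prior count of 2. The fit was tested on simulated data. Alternatives were DESeq2 1.42.0, limma 3.58.1 (voom), other scalings and filters, a replicate block, leaving out libraries and added pseudogene rows. Transcript windows were aligned with bwa 0.7.19 to GENCODE vM21. RefSeq promoter windows use GRCm38.p6 and share no coordinates with the mm9 table. Replicates differed by more than counting noise, with a chi-square over its degrees of freedom of at least 11.4.

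Members named were those called, those with the smallest p across pools, the highest and lowest RPKM, the extremes in PL and around the library shift, the stalk, paralogues and rows at the read minimum. Members separated in IF and those driven by 1 library were added after their values were seen. Some genes these rules name are not reported here.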

Additional observations from a re-analysis of the deposited data

How the results depend on the processing

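The direction of the member medians in TA, EDL, PL and IF was the same in every alternative tried. With total-count scaling the medians were 0.94 in IF and -0.91 in PL, but that scaling moved the median of all genes from 0.02 to 0.33 and from -0.06 to -0.37; relative to it the members were at 0.61 and -0.54, against 0.59 and -0.56 before. In other alternatives this relative value came closer to 0: in PL it was -0.17 without PL 1, -0.22 without a filter on low counts and -0.34 with voom, and in IF 0.41 with voom. In TA it was -0.37 in the main setting, -0.10 without TA 3, -0.12 without a filter and -0.54 without TA 2. In EDL it was 0.12 in the main setting, 0.05 without TA 3 and 0.28 without EDL 2. Total-count scaling gave member shifts of -1.09 in PL 2, -1.15 in PL 3, 0.51 in GS 1 and 0.72, 1.13 and 0.88 in IF. With it there were 0 calls in PL (1.03% of all genes) and 1 in IF (1.23% of all genes). In 13 members all IF libraries were above the rest (3.63% of all genes). Leaving out each library in turn gave medians of -0.62 to -0.16 in TA, 0.14 to 0.34 in EDL, -0.74 to -0.50 in PL, -0.29 to 0.053 in GS (lowest without GS 1) and 0.50 to 0.81 in IF (highest without IF 1). The calls were 0 to 1 across pools, 0 to 6 in PL, 0 to 1 in IF and 0 to 12 over the pairs, the highest of each without PL 1. Without that library 8.08% of all genes were called across pools, 21.4% in PL and 2.22% in IF. Over the pairs, 4.96% of the tests over all genes passed, and the 12 member calls came from 670 tests.

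Calls over the members were also 1 across pools and 1 over the pairs without a filter on low counts. There 6.97% of all genes and 1.17% of the pair tests over all genes passed. With DESeq2 they were 3 across pools and 9 over the pairs (8.11% and 2.91%), and 3 in PL and 1 in IF (12.0% and 1.74% of all genes). Limma voom gave 1 in IF and 0 in PL (1.94% and 1.19%). Over all genes, the number called in PL was 698, and 147 with total counts, 143 with the block, 170 with voom, 10 without PL 2 and PL 3, 1485 without a filter and 1717 with DESeq2. In IF it was 158, and 514 without a filter, 96 with the block, 249 with DESeq2 and 278 with voom. Across pools it was 188, and 106 with total counts, 95 with the block, 1425 without a filter and 1163 with DESeq2. In TA it was 60, and 492, 420, 111 and 33 without a filter, with DESeq2, with voom and with the block; in EDL 14, and 238, 69, 38 and 7; in GS 18, and 171, 57, 12 and 6. Without PL 2 and PL 3 it was 236 in TA and 28 in EDL, and with total counts 25 in EDL. Over the pairs it was 355, and 2389 without a filter, 4179 with DESeq2, 756 with voom and 806 without PL 2 and PL 3. Replicate numbers did not pair the libraries: of 30 same-numbered pairs 1 correlated above 0.1 (range -0.07 to 0.13) and 4 of 15 libraries correlated best with their own number. With the replicate block 0 members were called in PL and in IF. Without the 10 genes with the most counts the members held 0.250%, 0.239% and 0.235% of counts in EDL. The cause of these changes was not tested. Depth limits the low members: 43 of the 65 tested had under 100 reads a library on average.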
